A study of Homo sapiens with 24 samples.

Results

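The genes described here are 46 genes of glucose uptake, glycolysis, lactate handling and the response to low oxygen, taken by symbol from 60649 features counted by RNA-seq in LNCaP cells. LNCaP is an androgen-sensitive prostate cancer line. The libraries come from 2 separate experiments of 4 groups with 3 libraries each, 24 in all. In the peptide experiment the cells carried a construct for WDR77-peptide 3 (P3) or the empty vector (EV). In the knockdown experiment they carried siRNA against WDR77 (siWDR77) or a non-targeting siRNA (siCtrl). WDR77 is a partner of the arginine methyltransferase PRMT5. All cells were kept in androgen-deprived medium, and each transfection was treated for 48 h with R1881, an androgen agonist made by synthesis, at 5 nM or with ethanol as vehicle. The groups are therefore P3_R1881 and P3_vehicle, EV_R1881 and EV_vehicle, siWDR77_R1881 and siWDR77_vehicle, and siCtrl_R1881 and siCtrl_vehicle. A level is a mean over all cells of a culture, so fewer responding cells and a smaller response per cell cannot be told apart.

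Glucose enters cells through facilitative transporters of the SLC2A family and is trapped by hexokinases, which phosphorylate it. The later enzymes carry it to pyruvate. Lactate dehydrogenase turns pyruvate into lactate, which leaves through SLC16A carriers, and PDK kinases keep pyruvate out of the mitochondria by inhibiting pyruvate dehydrogenase. PFKFB enzymes set the level of the sugar bisphosphate that activates phosphofructokinase. Hypoxia-inducible factors (HIF) are transcription factors whose alpha subunits are marked for destruction by EGLN prolyl hydroxylases when oxygen is present, and many glycolytic genes are among their targets.

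Library totals ran between 16665915 and 24260446 counts. WDR77, the targeted gene, averaged 14.2 ± 1.17 CPM in siWDR77_R1881 against 65.7 ± 1.77 in siCtrl_R1881, and 13.1 ± 1.79 in siWDR77_vehicle against 44.9 ± 2.86 in siCtrl_vehicle (SD, n = 3; CPM are counts relative to a library size scaled by the TMM method within each experiment, here and below). It was at 94.7 ± 5.62 CPM in P3_R1881 against 60.7 ± 2.84 in EV_R1881, and at 56.6 ± 4.64 in P3_vehicle against 59.1 ± 4.24 in EV_vehicle, and whether reads of the construct were counted for the gene was not tested. KLK3, a marker of luminal prostate cells, averaged between 153 and 8187 CPM over the 8 groups. Of 7 markers of blood, vessel, fibroblast, mural and basal cells, COL1A2 had no count, PTPRC, PECAM1, TP63 and KRT5 had group means of at most 0.0454 CPM, PDGFRB of at most 0.804, and COL1A1 of 7.29 to 22.6 CPM. The siCtrl_vehicle library with sample number 35 stood apart, with 8.40% of its counts on mitochondrial genes against 5.15% to 6.30% in the other 23. Some results that change without it are also given without it.

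In both control transfections R1881 raised the listed and tested genes at the entry of the pathway. The glucose transporter genes SLC2A3, SLC2A12 and SLC2A1, the hexokinase genes HK1 and HK2 and the regulator PFKFB2 were higher. The 12 enzyme genes between glucose 6-phosphate and pyruvate moved little and in both directions. Other glucose transporter and kinase genes, outside the 46, moved in both directions. Of 7 tested in EV cells 3 were called higher and 1 lower, against 24.9% and 26.4% of all genes. Their median log2 fold change was 0.04, with values from -1.60 to 1.41. In siCtrl cells 3 of 8 were called higher and 1 lower, against 25.7% and 25.4% of all genes. The median there was -0.02, with values from -1.12 to 4.52. The edgeR quasi-likelihood test, adjusted over all 17772 genes tested in the peptide experiment and called at an adjusted p under 0.05, found 26 members higher and 10 lower in EV_R1881 than in EV_vehicle, of 43 that passed the filter on low counts. Over all genes 24.9% were called higher and 26.4% lower. The median log2 fold change of the 43 was 0.35, also with SLC2A3 at its bound below, against -0.04 over all genes. In siCtrl cells 22 of 43 members were higher and 11 lower with R1881, against 25.7% and 25.4% of 17893 genes, with a median of 0.23. 20 members were called higher and 9 lower in both control transfections, which share no library, or 46.5% and 20.9% of the 43, against 19.3% and 16.9% of the 17236 genes tested in both. Of the 36 members called in EV cells 80.6% had the same call in siCtrl cells, against 69.1% of all genes called in EV cells.

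SLC2A3 encodes the neuronal-type glucose transporter GLUT3, at chr12:7919230-7936275 on the minus strand (GENCODE 29, GRCh38, as for all gene positions here). It had 256, 275 and 219 counts in EV_R1881, or 14.8, 14.5 and 14.3 CPM, and no count in any EV_vehicle library. It was at 8.90, 10.8 and 13.3 CPM in siCtrl_R1881 and at 14.7, 14.2 and 15.02 CPM in siWDR77_R1881, with 0 counts in all 6 vehicle libraries of the knockdown experiment. Taking 3 counts over a group as the floor, the gene was at least 299-fold higher with R1881 in EV cells, at least 249-fold in siCtrl cells and at least 330-fold in siWDR77 cells; such floors cover counting error only. SLC2A14, a near-identical copy whose reads cannot be separated with certainty, had 24 counts in EV_R1881 and 0 in EV_vehicle. P3_vehicle was the one vehicle group with SLC2A3 counts, 4, 2 and 5 in its libraries.

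SLC2A12, which encodes the transporter GLUT12 (chr6:133988697-134052636, minus strand), stood at 129, 129 and 125 CPM in EV_R1881 against 44.7, 45.4 and 44.4 in EV_vehicle. Every R1881 library was above every vehicle library, a log2 fold change of 1.51 ± 0.063 (± SE of the fit, here and below; edgeR adjusted p = 2.68e-23). In siCtrl cells it was at 91.6, 123 and 119 CPM with R1881 against 37.3, 32.4 and 45.7 with vehicle (1.53 ± 0.14, edgeR adjusted p = 2.08e-06). Of its exon bases 38.9% overlap TBPL1 on the opposite strand, and the strand setting of the counting is not given in the sources used here. SLC2A1, the widely expressed transporter GLUT1, rose by 0.51 ± 0.059 in EV cells and by 0.86 ± 0.067 in siCtrl cells. SLC2A10, which encodes GLUT10, had 39 counts in EV_R1881 and 0 in EV_vehicle, at least 15.6-fold more, and did not pass the filter in either experiment.

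HK1 (chr10:69269984-69401884, plus strand), the widely expressed hexokinase, was at 403, 403 and 390.5 CPM in EV_R1881 against 164, 156 and 157 in EV_vehicle, and at 493, 471 and 452 CPM in siCtrl_R1881 against 165, 167 and 162 in siCtrl_vehicle. The groups did not overlap, with log2 fold changes of 1.33 ± 0.049 and 1.52 ± 0.057 (edgeR adjusted p = 3.57e-25 and 3.77e-17). HK2 (chr2:74833981-74893359, plus strand), the inducible hexokinase of many tumours, was at 125, 113 and 124 CPM in EV_R1881 against 59.9, 61.5 and 64.6 in EV_vehicle (0.96 ± 0.061, edgeR adjusted p = 2.98e-17). In siCtrl cells HK2 was at 60.6, 70.5 and 74.2 CPM with R1881 against 17.9, 19.5 and 18.6 with vehicle (1.88 ± 0.085, edgeR adjusted p = 1.67e-15). Per kilobase of merged exons, HK2 made up 23.9% ± 1.21 of the summed HK1 and HK2 level in EV_R1881 against 28.9% ± 1.23 in EV_vehicle, and 13.1% ± 1.65 in siCtrl_R1881 against 10.5% ± 0.357 in siCtrl_vehicle (SD, n = 3). HK1 was thus the more abundant per length in these 4 groups.

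PFKFB2 (chr1:207034366-207081024, plus strand) encodes a bifunctional enzyme that makes and degrades the activator of phosphofructokinase. It was at 154, 164 and 151 CPM in EV_R1881 against 41.8, 43.3 and 43.3 in EV_vehicle (1.87 ± 0.062, edgeR adjusted p = 1.23e-26). In siCtrl cells it was at 197, 217 and 214 CPM with R1881 against 49.2, 48.3 and 52.7 with vehicle (2.06 ± 0.070, edgeR adjusted p = 5.79e-18). Its relative PFKFB4 rose by 0.76 ± 0.082 in EV cells and 0.49 ± 0.098 in siCtrl cells, whereas PFKFB3 stood at 27.3 CPM in EV_R1881 against 26.5 in EV_vehicle and was not called (0.038 ± 0.083, edgeR adjusted p = 0.732). As a share of the 3 genes per length, PFKFB2 made up 56.7% ± 2.71 in EV_R1881 against 32.9% ± 0.974 in EV_vehicle, and 75.0% ± 1.72 in siCtrl_R1881 against 46.7% ± 2.50 in siCtrl_vehicle.

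**Figure D1:**
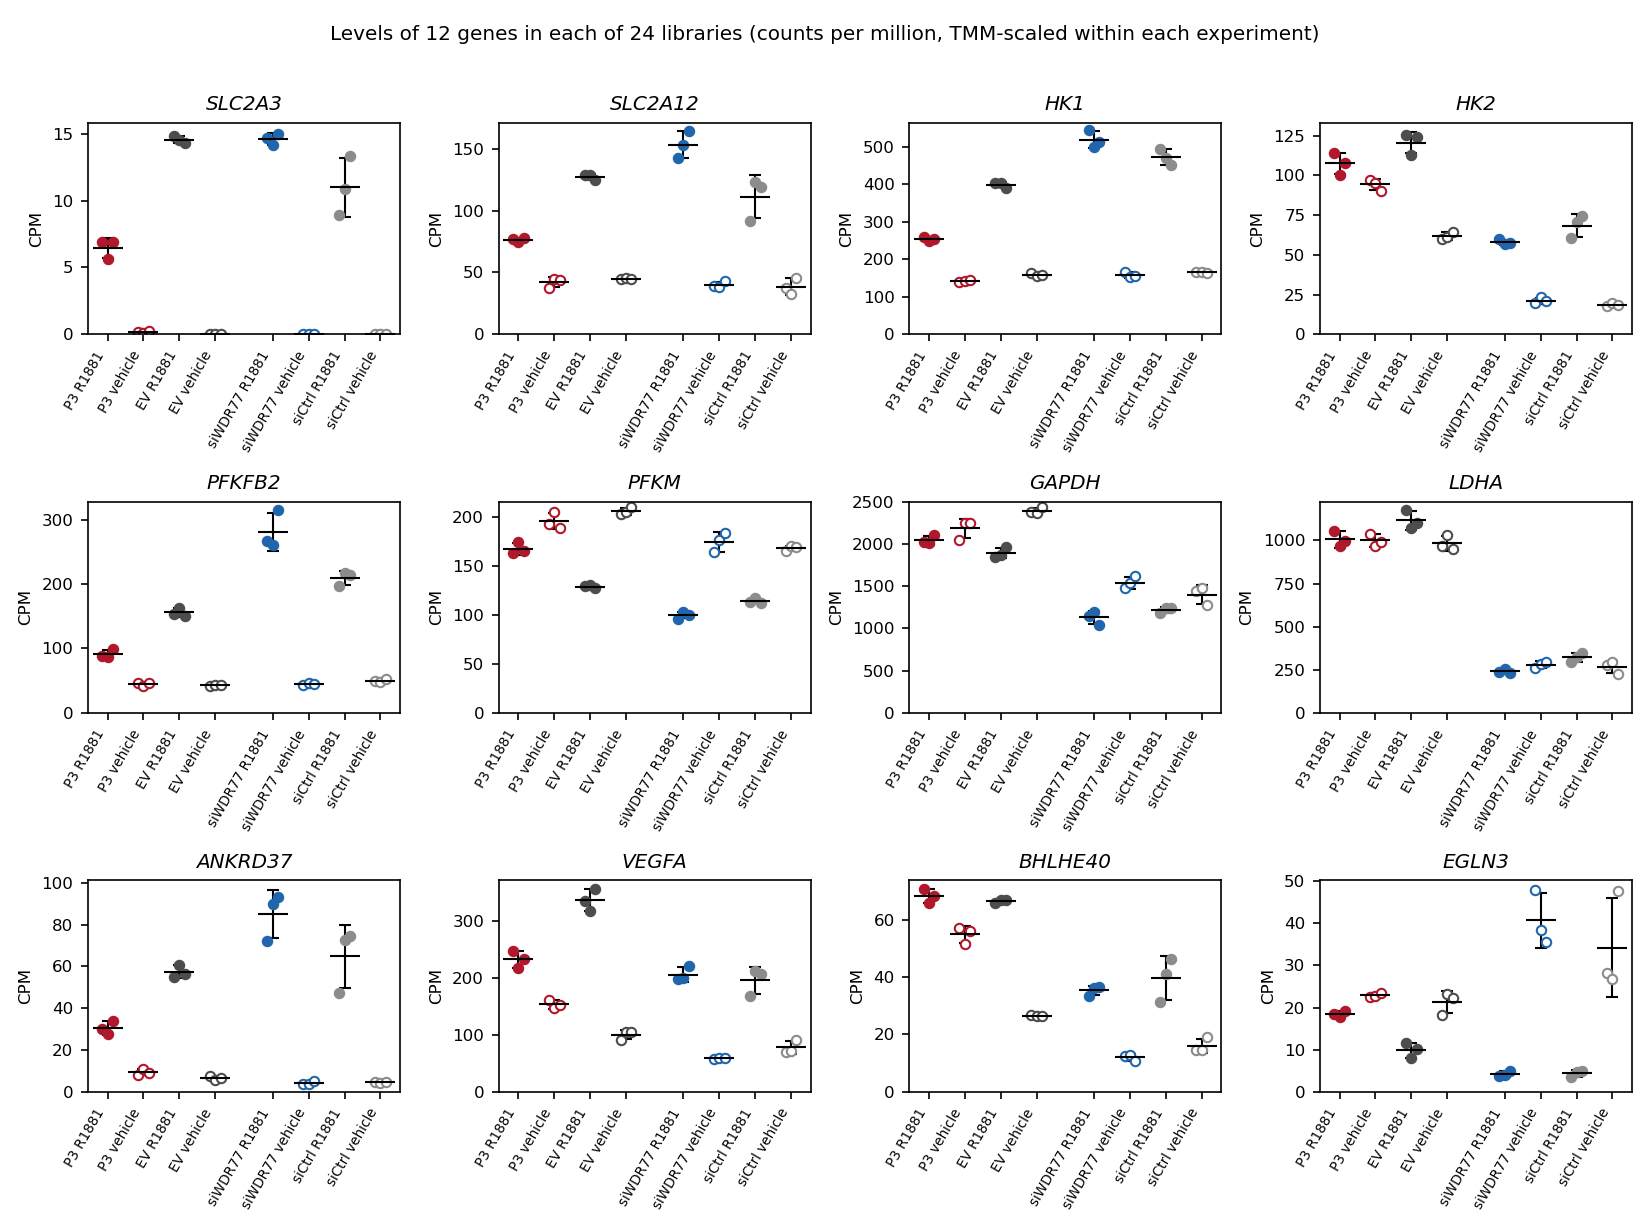
CPM (vertical axis) of 12 genes in each of the 24 libraries by group; filled circles are R1881 libraries, open circles vehicle libraries, and the bar with whiskers is the mean ± SD of 3. SLC2A3 is at 0 in every vehicle group but P3_vehicle, and HK1 and PFKFB2 are higher with R1881 in each of the 4 transfections.

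The 12 later genes run from glucose-6-phosphate isomerase to pyruvate kinase. Of these, 4 were called higher and 4 lower in EV_R1881 than in EV_vehicle, against 24.9% and 26.4% of all genes. In siCtrl cells 5 of the 12 were higher and 4 lower, against 25.7% and 25.4%. Their median log2 fold changes were 0.06 and 0.11, beside 1.23 and 1.70 over the 4 tested genes among the transporters and HK2. None of the 12 reached 2-fold in either. The sets overlapped in EV cells, where SLC2A1 rose by 0.51 and PGK1 of the later genes by 0.59. PGK1, the first ATP-forming enzyme of the pathway, was at 1004, 957 and 1033 CPM in EV_R1881 against 655, 673 and 657 in EV_vehicle, the highest log2 fold change of the list there (0.59 ± 0.047, edgeR adjusted p = 3.08e-14), and rose by 0.29 ± 0.063 in siCtrl cells. PFKM, the muscle-type phosphofructokinase, had the lowest, at 129, 130.3 and 128 CPM in EV_R1881 against 203, 205 and 210.2 in EV_vehicle (-0.68 ± 0.051, edgeR adjusted p = 9.75e-15), and fell by 0.55 in siCtrl cells (SE 0.056).

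PFKL, the liver type, was at 377 CPM in EV_R1881 against 372 in EV_vehicle and was not called, though without TMM scaling it was lower, and PFKP, the platelet type, rose by 0.36 ± 0.058 in EV cells and 0.41 ± 0.088 in siCtrl cells. Per length PFKM made up 18.0% ± 1.08 of the 3 phosphofructokinases in EV_R1881 against 28.2% ± 0.202 in EV_vehicle, and 23.2% ± 1.03 in siCtrl_R1881 against 33.3% ± 1.06 in siCtrl_vehicle. GAPDH, which makes NADH in glycolysis, fell by 0.34 (SE 0.046) in EV cells, the isomerase gene TPI1 by 0.22 (SE 0.049) and PKM, the pyruvate kinase gene, by 0.26 (SE 0.046), and the same 3 were called lower in siCtrl cells. PGAM1, a phosphoglycerate mutase, was called higher in both, at 0.15 ± 0.048 and 0.16 ± 0.054, but at -0.018 and -0.11 without TMM scaling. ALDOA, the main aldolase of muscle, was at 15.1 CPM in EV_R1881 against 11.3 in EV_vehicle; 42.3% of its exon bases are shared on the same strand with CTD-2515O10.6, so its level is uncertain.

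**Figure D2:**
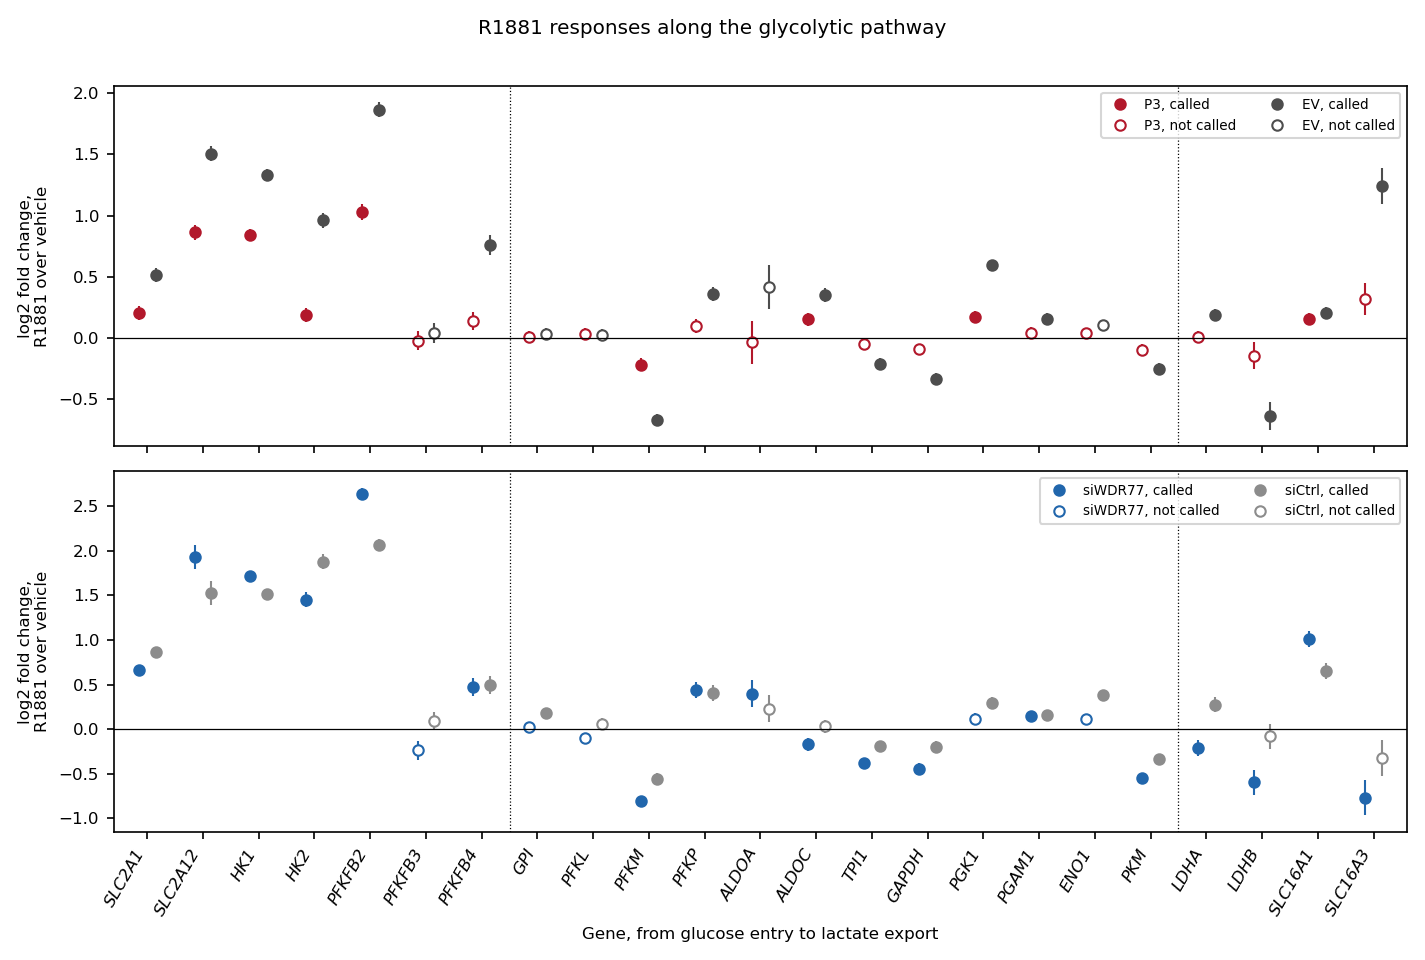
Log2 fold change of R1881 over vehicle (vertical axis, points with ± SE) for 23 genes ordered from glucose entry to lactate export, in P3 and EV cells and in siWDR77 and siCtrl cells; filled points are called and open points are not. In EV cells the 12 later enzymes lie between -0.68 and 0.59, below SLC2A12, HK1 and PFKFB2, while SLC2A1, at 0.51, lies within that range. SLC2A3 is left out since 3 of its vehicle groups have no count.

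LDHA, which makes lactate, rose slightly in both control transfections, at 1177, 1072 and 1099.5 CPM in EV_R1881 against 968, 1034 and 950.3 in EV_vehicle (0.18 ± 0.049, edgeR adjusted p = 0.00192), and by 0.27 ± 0.086 in siCtrl cells. SLC16A1, the lactate carrier MCT1, rose by 0.20 ± 0.051 in EV cells and 0.65 ± 0.089 in siCtrl cells. SLC16A3, the export carrier MCT4, was at 13.7, 12.5 and 17.1 CPM in EV_R1881 against 5.30, 6.72 and 6.12 in EV_vehicle (1.24 ± 0.15, edgeR adjusted p = 2.23e-09). In siCtrl cells it was at 3.11, 2.79 and 2.57 CPM with R1881 against 3.86, 3.67 and 3.03 with vehicle and was not called (-0.32 ± 0.20), though without TMM scaling it was called lower (-0.59). Among the kinases that inhibit pyruvate dehydrogenase, PDK1 rose by 0.22 ± 0.072 in EV cells, a call lost under 2 alternatives (adjusted p up to 0.126), and by 0.38 ± 0.11 in siCtrl cells, and neither call held without TMM scaling. PDK3 fell by 0.43 (SE 0.069) and 0.54 (SE 0.088). PDK4 had 7 counts in EV_R1881 and 0 in EV_vehicle and did not pass the filter.

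HIF1A, the gene of the HIF-1 alpha subunit, rose in both, at 334, 318 and 313 CPM in EV_R1881 against 156, 174 and 172 in EV_vehicle (0.94 ± 0.051, edgeR adjusted p = 1.75e-19) and by 0.82 ± 0.083 in siCtrl cells. EPAS1, the HIF-2 alpha gene, was at 6.19 CPM in EV_R1881 against 3.94 in EV_vehicle (0.65 ± 0.19) and was not called in siCtrl cells (0.26 ± 0.19). EGLN3 (chr14:33924231-34462774, minus strand), a prolyl hydroxylase gene that HIF itself induces, fell, at 11.54, 7.92 and 10.1 CPM in EV_R1881 against 18.2, 23.2 and 22.3 in EV_vehicle (-1.12 ± 0.12, edgeR adjusted p = 5.68e-11). In siCtrl cells it was at 3.37, 4.76 and 4.92 CPM with R1881 against 28.1, 26.7 and 47.7 with vehicle, without overlap (-2.96 ± 0.28, edgeR adjusted p = 8.74e-06). The highest of these vehicle values is from the library of high mitochondrial share, and without it the log2 fold change was -2.65.

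Genes that hypoxia induces in many cell types moved in both directions with R1881. Of the 13 listed 12 were tested. In EV_R1881 8 were called higher and 3 lower than in EV_vehicle, against 24.9% and 26.4% of all genes. In siCtrl cells 6 were higher and 4 lower, against 25.7% and 25.4%. Higher in both were ANKRD37, an ankyrin-repeat gene, VEGFA, the angiogenic growth factor, the transcriptional repressor BHLHE40, the mitophagy receptor genes BNIP3 and BNIP3L, and the histone demethylase gene KDM7A; the call of BNIP3L in siCtrl cells (0.29 ± 0.053) was lost without TMM scaling (0.033). Lower in both were ADM, which encodes the vasodilator peptide adrenomedullin, CA12, a carbonic anhydrase, and MXI1, an antagonist of MYC. DDIT4, an inhibitor of mTORC1 signalling, was not called in either, at 208 CPM in EV_R1881 against 201 in EV_vehicle, but was called lower in both without TMM scaling. Of its exon bases 41.2% overlap DDIT4-AS1 on the opposite strand.

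ANKRD37 (chr4:185396021-185400628, plus strand) was at 54.8, 60.9 and 56.5 CPM in EV_R1881 against 7.26, 5.58 and 6.65 in EV_vehicle (3.15 ± 0.11, edgeR adjusted p = 1.09e-25), and at 47.2, 72.7 and 74.4 CPM in siCtrl_R1881 against 4.67, 3.92 and 4.83 in siCtrl_vehicle (3.85 ± 0.23, edgeR adjusted p = 2.04e-07). Neither pair of groups overlapped, and 35.2% of its exon bases overlap UFSP2 on the opposite strand. VEGFA (chr6:43770184-43786487, plus strand) was at 336, 318 and 357 CPM in EV_R1881 against 91.0, 104 and 106 in EV_vehicle (1.75 ± 0.060). BHLHE40 was at 66.2, 67.2 and 67.1 CPM in EV_R1881 against 26.9, 26.5 and 26.5 in EV_vehicle (1.33 ± 0.067). In siCtrl cells VEGFA rose by 1.34 ± 0.10 and BHLHE40 by 1.31 ± 0.13. ADM was barely counted, with 6 counts over EV_R1881 and 63 over EV_vehicle (-3.03 ± 0.57, edgeR adjusted p = 1.73e-05), and 18 over siCtrl_R1881 against 78 over siCtrl_vehicle (-1.77 ± 0.52). CA9, a carbonic anhydrase widely used as a mark of hypoxia, had 6 counts over EV_R1881 and 11 over EV_vehicle, and none in the 12 libraries of the knockdown experiment. Of its exon bases 38.5% overlap ARHGEF39 on the opposite strand, so its level is uncertain.

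The collagen prolyl hydroxylase gene P4HA1 was called in opposite directions. It was at 132, 124 and 115 CPM in EV_R1881 against 82.4, 86.5 and 72.6 in EV_vehicle (0.62 ± 0.067, edgeR adjusted p = 4.32e-10), and at 36.9, 50.5 and 50.6 CPM in siCtrl_R1881 against 70.4, 71.6 and 61.1 in siCtrl_vehicle (-0.56 ± 0.096, edgeR adjusted p = 6.98e-05). The groups did not overlap in either experiment, and the difference between the experiments itself was not tested. P4HA2, its relative, rose by 1.14 ± 0.11 in EV cells and was not called in siCtrl cells (-0.24 ± 0.14).

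Of the 13 genes listed as hypoxia-inducible, VEGFA, ANKRD37, BHLHE40 and ADM moved 2-fold or more in the same direction in both control transfections. The promoters of the last 3, and for contrast of DDIT4, are shown with the core of the HIF response element, ACGTG or GCGTG on either strand, in capitals. Each run holds the 250 bases before the start that RefSeq annotates, 5′ to 3′ on the plus strand (GRCh38.p14). The GENCODE spans of ANKRD37, BHLHE40 and ADM begin further upstream, at 185396021, 4979116 and 10304680, so these 3 runs lie within the GENCODE genes.
ANKRD37, chr4:185396591-185396840: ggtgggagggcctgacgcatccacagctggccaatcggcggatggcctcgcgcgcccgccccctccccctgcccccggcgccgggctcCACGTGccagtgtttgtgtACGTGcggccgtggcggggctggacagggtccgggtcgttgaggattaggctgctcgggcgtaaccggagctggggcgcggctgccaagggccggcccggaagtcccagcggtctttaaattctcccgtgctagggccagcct
BHLHE40, chr3:4979187-4979436: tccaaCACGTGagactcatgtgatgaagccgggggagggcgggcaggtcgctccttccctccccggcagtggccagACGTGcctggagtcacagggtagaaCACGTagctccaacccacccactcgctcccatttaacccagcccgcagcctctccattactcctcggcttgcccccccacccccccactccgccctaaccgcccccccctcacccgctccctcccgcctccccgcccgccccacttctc
ADM, chr11:10304823-10305072: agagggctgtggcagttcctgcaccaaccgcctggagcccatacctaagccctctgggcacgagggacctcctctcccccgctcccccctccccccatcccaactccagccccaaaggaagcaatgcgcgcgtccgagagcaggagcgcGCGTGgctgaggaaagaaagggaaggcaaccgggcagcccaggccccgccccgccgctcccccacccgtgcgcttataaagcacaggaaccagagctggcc
DDIT4, chr10:72273674-72273923: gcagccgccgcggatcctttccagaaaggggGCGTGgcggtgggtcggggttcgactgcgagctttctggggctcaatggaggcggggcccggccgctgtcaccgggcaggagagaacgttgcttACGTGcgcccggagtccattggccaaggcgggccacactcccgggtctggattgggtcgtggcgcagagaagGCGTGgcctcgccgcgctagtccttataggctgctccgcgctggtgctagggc
ANKRD37 holds 3 matches, BHLHE40 4, ADM 1 and DDIT4 3, where CACGTG holds ACGTG on both strands and so counts for 2. The promoter table held 41 of the 46 members, all but VEGFA, SLC2A3, PFKFB2, SLC16A1 and BNIP3L, with 72 promoters, of which 58.3% held ACGTG or GCGTG, against 43.2% of all 35116 promoters of the same length. For ACGTG alone the shares were 38.9% of member promoters and 18.5% of all, for GCGTG alone 33.3% and 32.2%, and for AGAACA, searched on both strands as 1 arm of the androgen response element, 8.33% and 12.4%. The whole element, AGAACA and TGTTCT with 3 bases between them, was in none of the 72 and in 0.00285% of all. The BHLHE40 run also holds 1 AGAACA match, which is not marked. Of the 4 shown, ANKRD37, BHLHE40 and ADM were picked by their response and for a promoter that holds a searched motif. DDIT4 was picked for not being called. A searched motif before the first 3 was thus a condition of the choice and is no result. A link between the core and the response was not tested.

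Of 100 other genes of these pathways, 83 were tested in the peptide experiment and 82 in the knockdown experiment. In EV_R1881 40 were higher and 17 lower than in EV_vehicle, against 24.9% and 26.4% of all genes. In siCtrl_R1881 34 of them were higher and 19 lower than in siCtrl_vehicle, against 25.7% and 25.4%. The 3 with the largest rise in both, among genes of at least 1 CPM, were NDRG1, a stress- and androgen-inducible gene, at 2385 CPM in EV_R1881 against 141 in EV_vehicle (4.08 ± 0.063), LOX, the collagen crosslinking oxidase (2.91 ± 0.33), and MPC2, a subunit of the mitochondrial pyruvate carrier (1.93 ± 0.060). In siCtrl cells they rose by 4.28 ± 0.077, 2.94 ± 0.50 and 2.28 ± 0.076. The largest falls in EV cells were in SLC16A7, the carrier MCT2 (-1.77 ± 0.15), TXNIP, an inhibitor of glucose uptake, at 123 CPM in EV_R1881 against 321 in EV_vehicle (-1.39 ± 0.058), and TMEM45A (-1.25 ± 0.36). In siCtrl cells they were in MLXIPL, the glucose-sensing factor ChREBP (-1.85 ± 0.33), SLC16A7 (-1.79 ± 0.26) and ENO2, the neuronal enolase (-1.74 ± 0.13).

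Scaling set how the small changes divided. TMM factors were 0.902 to 0.907 in EV_R1881 against 1.01 to 1.02 in EV_vehicle, and 0.901 to 0.932 in siCtrl_R1881 against 1.07 to 1.12 in siCtrl_vehicle. Without them the median log2 fold change of all genes was -0.21 in EV cells and -0.31 in siCtrl cells. In EV cells 21 members were then higher and 14 lower, with 3091 and 6930 of 17772 genes. In siCtrl cells 13 and 18 members were, with 2669 and 7810 of 17893 genes. The higher calls lost were those of LDHA, SLC16A1, PDK1, EGLN1 and PGAM1 in EV cells, and of LDHA, PDK1, PFKFB4, BNIP3L, GPI, PFKP, PGK1, ENO1 and PGAM1 in siCtrl cells. P4HA2 was among the genes then called lower in siCtrl cells. The later enzymes then divided into 3 higher and 6 lower in EV cells and 0 and 6 in siCtrl cells, while all 4 tested genes among the transporters and HK2 stayed higher in both.

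**Figure D3:**
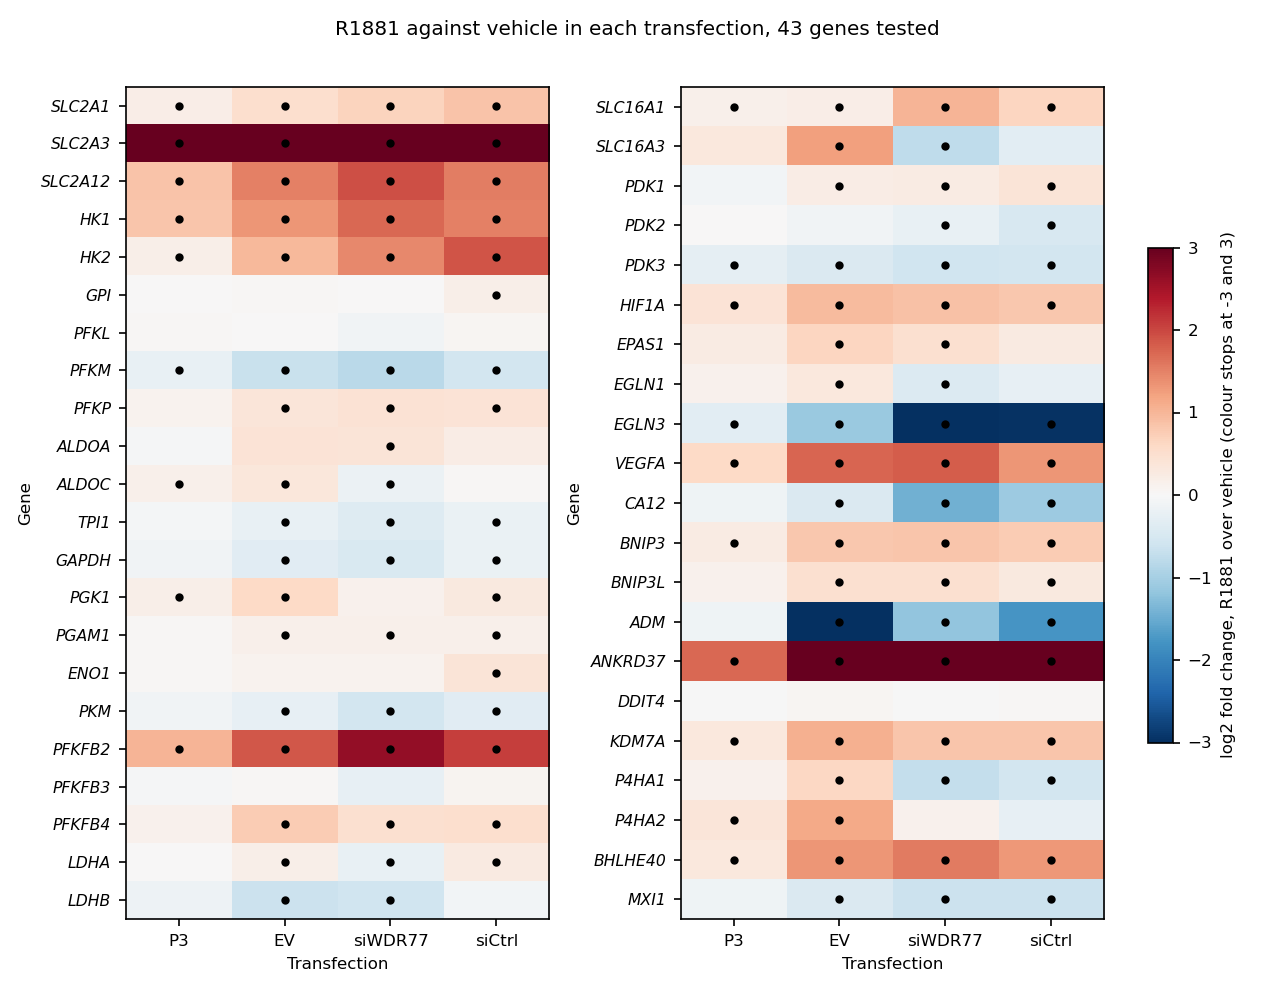
Log2 fold change of R1881 over vehicle (colour, stopping at -3 and 3) for the 43 tested genes (rows, by role) in the 4 transfections (columns); a dot marks an adjusted p under 0.05. The P3 column carries 19 dots, the EV column 36, the siWDR77 column 36 and the siCtrl column 33; SLC2A3 has no count in 3 of the 4 vehicle groups, so its colour there is no estimate of size.

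With the WDR77 peptide, R1881 moved fewer of these genes, and by less. 16 members were higher and 3 lower in P3_R1881 than in P3_vehicle, against 13.0% and 7.96% of all genes. All 19 were called in EV cells in the same direction, as were 96.2% of the 3726 genes called in P3 cells. Without TMM scaling, where the median of all genes was -0.11, 10 members were higher and 7 lower. Of 17772 genes 1609 were then higher and 2927 lower. Among the 19, the calls of ALDOC, SLC16A1 and EGLN3 were lost under 11, 8 and 7 alternatives. Without TMM scaling those of SLC2A1, HK2, PGK1, ALDOC, SLC16A1 and P4HA2 were lost. The 4 tested genes among the transporters and HK2 were all called higher, 2 of them without TMM scaling. With the sample numbers as a replicate block, SLC16A3 (0.32) and BNIP3L (0.12) were called higher as well. Each of the 36 members called in EV cells, which that call selects, had a smaller log2 fold change in P3 cells, disregarding sign, at a median ratio of P3 to EV of 0.31. Over all 9130 genes called in EV cells 98.6% had a smaller one, at a median ratio of 0.37, so the members stood near the background, and the same held for all members called in EV cells under the alternatives tried.

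The test of the difference between the responses called 26 of 43 members. The log2 fold change was higher in P3 than in EV cells in 6 and lower in 20, against 11.5% and 11.1% of all genes. Without TMM scaling it was higher in 9 and lower in 18, with 2930 and 1462 of 17772 genes. VEGFA was at 248, 218 and 233 CPM in P3_R1881 against 162, 147 and 153 in P3_vehicle, all between the EV_vehicle and EV_R1881 values, and its response was smaller by 1.15 on the log2 scale (SE 0.083, edgeR adjusted p = 6.59e-14). PFKFB2 was at 88.7, 87.3 and 98.7 CPM in P3_R1881 against 46.1, 42.2 and 46.1 in P3_vehicle, a difference of -0.84 ± 0.088 (edgeR adjusted p = 4.82e-10). ANKRD37 was at 29.9, 27.7 and 33.9 CPM in P3_R1881 against 7.93, 10.9 and 8.99 in P3_vehicle, a response of 1.72 ± 0.11 that differed by -1.43 ± 0.16. All 4 tested genes among the transporters and HK2 had a lower response, as did PGK1 and PFKP of the 12 later enzymes (that of PFKP not called without TMM scaling), while PFKM and GAPDH, which R1881 lowered in EV cells, had a higher one.

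HK1 was at 259.5, 249 and 253 CPM in P3_R1881 against 139.8, 141 and 145 in P3_vehicle (0.84 ± 0.049, edgeR adjusted p = 1.18e-17), and HK2 at 114, 101 and 108 CPM in P3_R1881 against 97.5, 95.3 and 90.3 in P3_vehicle (0.19 ± 0.059, edgeR adjusted p = 0.0185, lost under 4 alternatives). The responses of both differed from those in EV cells, by -0.49 ± 0.069 and -0.77 ± 0.085. HK2 made up 40.8% ± 1.42 of the 2 hexokinases per length in P3_vehicle against 28.9% ± 1.23 in EV_vehicle. SLC2A12 rose by 0.86 ± 0.064 in P3 cells, a difference of -0.64 ± 0.089 from EV cells.

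**Figure D4:**
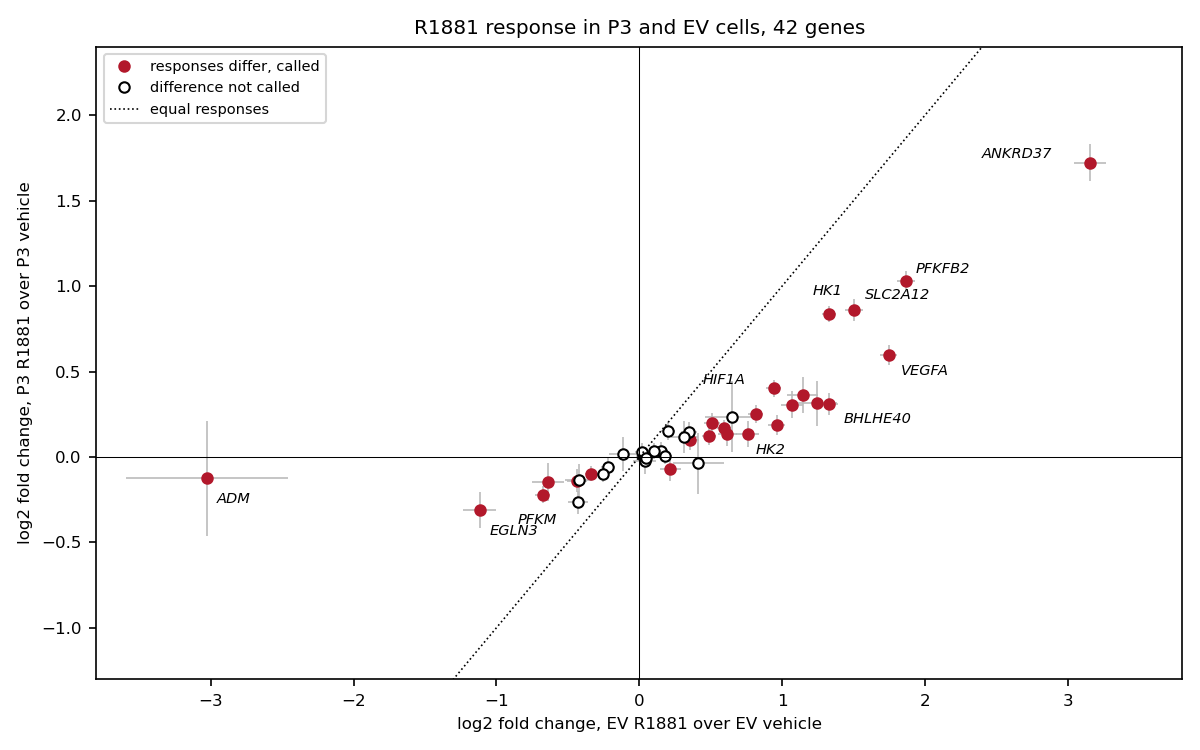
Log2 fold change of R1881 over vehicle in P3 cells (vertical axis) against that in EV cells (horizontal axis), ± SE, for 42 genes; red points are those whose 2 responses differed at an adjusted p under 0.05 and the dotted line marks equal responses. ANKRD37, VEGFA, BHLHE40 and HK2 lie below the line, and ADM and EGLN3 above it; SLC2A3 is left out since EV_vehicle has no count.

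Without hormone, several hypoxia-inducible genes were higher in P3 than in EV cells. 14 members were higher and 3 lower in P3_vehicle than in EV_vehicle, against 7.93% and 7.88% of all genes. Without TMM scaling 20 were higher and 0 lower, with 2104 and 385 of 17772 genes. BHLHE40 was at 57.2, 51.8 and 56.2 CPM in P3_vehicle against 26.9, 26.5 and 26.5 in EV_vehicle (1.05 ± 0.067, edgeR adjusted p = 5.96e-15). SLC16A3 was at 14.1, 10.1 and 12.8 CPM in P3_vehicle against 5.30, 6.72 and 6.12 in EV_vehicle (1.03 ± 0.14, edgeR adjusted p = 3.52e-06). PFKFB4 was higher by 0.92 ± 0.080, PFKFB3 by 0.66 ± 0.079, VEGFA by 0.61 ± 0.060, HK2 by 0.61 ± 0.061 and PDK1 by 0.57 ± 0.070, whereas SLC2A12 stood at 42.2 CPM in P3_vehicle against 44.9 in EV_vehicle and was not called. SLC2A3 had 11 counts over P3_vehicle and 0 over EV_vehicle, at least 3.39-fold more. By list, 5 of 12 hypoxia-inducible genes and 2 of 3 PFKFB genes were higher. The calls of DDIT4, GAPDH and TPI1 were lost under 10 alternatives each and that of HK1 under 5.

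With R1881 in both, 9 members were higher and 17 lower in P3_R1881 than in EV_R1881, against 18.1% and 18.9% of all genes. Without TMM scaling, where the median of all genes was 0.18, 19 members were higher and 10 lower. Of 17772 genes 5654 were then higher and 1688 lower. SLC2A3 was at 6.94, 5.60 and 6.87 CPM in P3_R1881 against 14.8, 14.5 and 14.3 in EV_R1881 (-1.17 ± 0.16, edgeR adjusted p = 1.56e-07). PFKFB2 was lower by 0.77 (SE 0.059), SLC2A12 by 0.73 (SE 0.061) and HK1 by 0.65 (SE 0.048). EGLN3 was higher, at 18.4, 17.9 and 19.3 CPM in P3_R1881 against 11.54, 7.92 and 10.1 in EV_R1881 (0.92 ± 0.12). ADM had 98 counts over P3_R1881 and 6 over EV_R1881 (3.83 ± 0.53, edgeR adjusted p = 1.64e-07), while BHLHE40, at 68.4 CPM in P3_R1881 against 66.8 in EV_R1881, was not called, though without TMM scaling it was called higher. PFKFB3 was higher by 0.60 ± 0.081 and PDK1 by 0.28 ± 0.071. These comparisons share libraries with those of the preceding paragraphs.

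In WDR77 knockdown cells R1881 moved most members as well. 20 members were higher and 16 lower in siWDR77_R1881 than in siWDR77_vehicle, against 27.7% and 25.5% of all genes. Without TMM scaling, where the median of all genes was -0.31, 14 members were higher and 23 lower. Of 17893 genes 2775 were then higher and 8096 lower. Of the 36 members called with the scaling, 29 were called in the same direction in siCtrl cells. That is 80.6% of the 36, against 81.2% of all genes called in siWDR77 cells. By edgeR 0 of 43 members were called as differing in response between siWDR77 and siCtrl cells, against 0% of all genes. The smallest adjusted p of a member in that edgeR test was 0.0569. DESeq2 called 2 members, PFKFB2, whose response was larger by 0.55 in siWDR77 cells, and LDHA, at -0.51. Over all genes it called 56 of 13408. Without the siCtrl_vehicle library of high mitochondrial share edgeR called 2 members, and 14 genes higher and 29 lower of 18444. Of the 33 members called in siCtrl cells, 12 had the smaller log2 fold change in siWDR77 cells, disregarding sign (36.4%, against 51.2% of all genes called in siCtrl cells).

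With R1881, several later enzymes were lower in the knockdown. 3 members were higher and 7 lower in siWDR77_R1881 than in siCtrl_R1881, against 3.90% and 3.31% of all genes, and leaving out single libraries moved the 10 calls to between 5 and 15. The 7 were LDHA, CA12 and 5 of the 12 later enzymes, ENO1, PKM, TPI1, PGAM1 and PFKM. LDHA was at 235, 255 and 233 CPM in siWDR77_R1881 against 296, 326 and 347 in siCtrl_R1881, without overlap (-0.42 ± 0.086, edgeR adjusted p = 0.00672). ENO1, an enolase, was at 1102, 1064 and 994 CPM in siWDR77_R1881 against 1289, 1329 and 1334 in siCtrl_R1881 (-0.32 ± 0.058, edgeR adjusted p = 0.00126), and PKM was lower by 0.27 (SE 0.058). TPI1, PGAM1 and PFKM were lower by 0.22, 0.21 and 0.20, calls lost under 6, 3 and 7 alternatives. CA12 was at 8.78, 7.16 and 7.13 CPM in siWDR77_R1881 against 9.91, 10.6 and 13.6 in siCtrl_R1881 (-0.56 ± 0.13). Without siWDR77_R1881 sample number 38 the count was 5, with 448 genes higher and 289 lower of 18485. Without siCtrl_R1881 sample number 22 or 36 it was 6. Without the siCtrl_vehicle library of high mitochondrial share it was 15, with 877 genes higher and 1106 lower of 18444.

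PFKFB2 was higher, at 267, 260.0 and 314 CPM in siWDR77_R1881 against 197, 217 and 214 in siCtrl_R1881 (0.42 ± 0.066, edgeR adjusted p = 0.000271), as were BNIP3L (0.28 ± 0.053) and SLC16A1 (0.30 ± 0.088, lost under 9 alternatives). SLC2A12 was at 143, 153 and 164 CPM in siWDR77_R1881 against 91.6, 123 and 119 in siCtrl_R1881 and was not called (0.46 ± 0.13, edgeR adjusted p = 0.0588; 0.0368 without TMM scaling). Without hormone 1 member was called, the aldolase gene ALDOC, at 97.4, 96.1 and 101 CPM in siWDR77_vehicle against 74.9, 82.7 and 85.8 in siCtrl_vehicle (0.28 ± 0.071, edgeR adjusted p = 0.0446), against 0.682% of all genes higher and 0.844% lower. That call was lost under 8 alternatives. Without the siCtrl_vehicle library of high mitochondrial share the count was 4, with 200 genes higher and 278 lower of 18444. Among the 4 were EGLN3 (0.57, edgeR adjusted p = 0.0118) and PGAM1 (-0.21, edgeR adjusted p = 0.037).

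**Figure D5:**
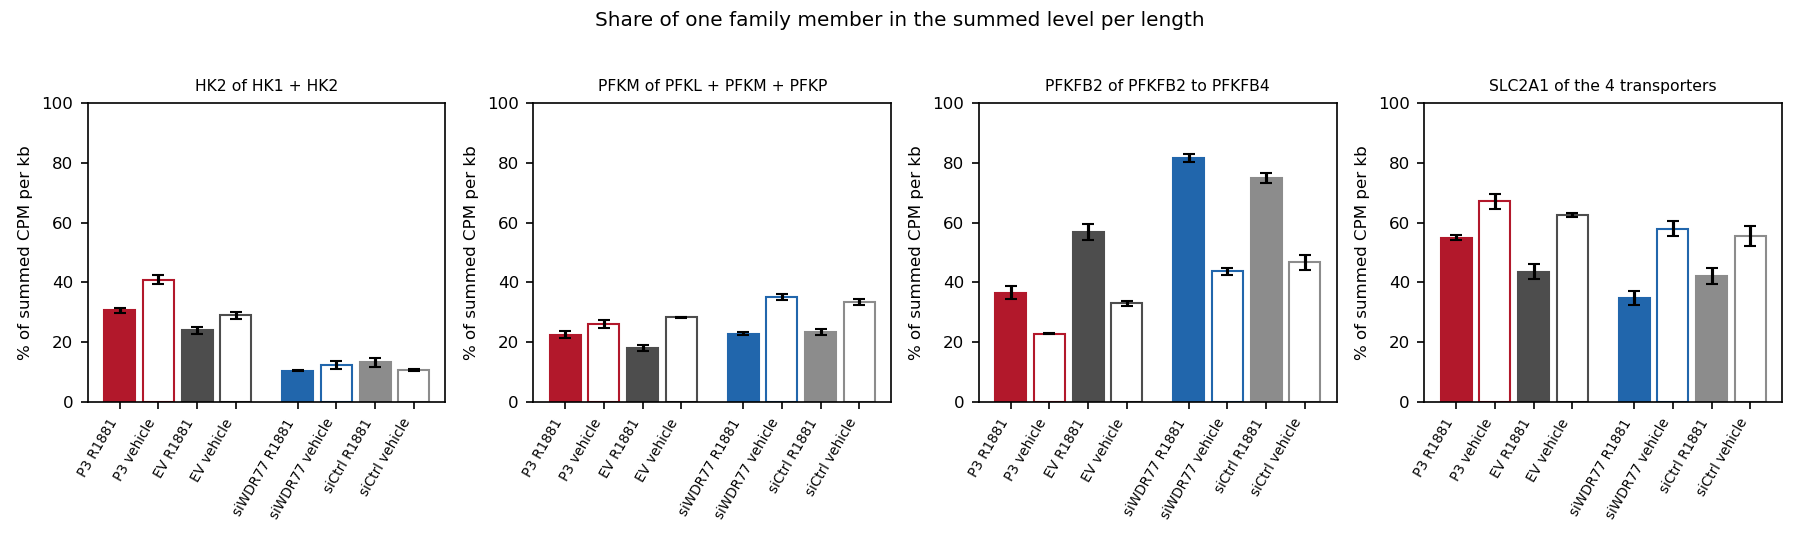
Share (vertical axis, %) of 1 gene in the summed CPM per kilobase of its family in each group, mean ± SD of 3 libraries. HK2 is 40.8% of the hexokinases in P3_vehicle, and PFKFB2 is 36.5% of its family in P3_R1881, 56.7% in EV_R1881, 81.5% in siWDR77_R1881 and 75.0% in siCtrl_R1881.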

How the data were processed

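Poly(A) RNA-seq of LNCaP cells was analysed from a deposited table of counts per gene. Per the submitters' processing notes, bcl2fastq 2.20, STAR 2.7.9a, featureCounts and Subread 1.6.4 were used with GRCh38.p7; the strand setting of the counting is not given in the sources used here. The authors' counts were used as deposited, with 16665915 to 24260446 per library. Columns were matched to samples by the sample number; 3 columns of P3_R1881 also carry the word siRNA. Biological triplicates are stated for the study. The p-values rest on the spread between the 3 libraries of a group, estimated over the 4 groups of an experiment together.

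Each experiment of 12 libraries was fitted alone with edgeR 4.0.16 in R 4.3.3 (filterByExpr, TMM, robust quasi-likelihood F test, 1 mean per group), with Benjamini-Hochberg adjustment over all genes tested and calls at an adjusted p under 0.05. SE is the absolute log2 fold change over the square root of F. The procedure was tested on simulated data. DESeq2 1.42.0, other scalings and filters, a replicate block and leaving out each library were alternatives; unscaled library sizes were added after seeing the data. Levels are CPM of the TMM-scaled library size, and levels per length divide by merged exons of GENCODE 29. Replicates of a group differed by more than sampling noise, with a chi-square per degree of freedom of at least 2.41.

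The members and the lists of other genes were chosen with earlier results of these data known. Named in depth are, per list and comparison, the called members with the smallest adjusted p and those with an R1881 log2 fold change of at least 1 in a control transfection; of the other genes, the 3 per direction with the largest called change and at least 1 CPM. Some members were described further after their values were seen. Sample numbers follow the same order in every group. Deviations of P3_R1881 and P3_vehicle libraries of the same position correlated at 0.176, 0.176 and 0.122. In the other comparisons not every such correlation was over 0.1. Libraries of different position reached 0.254, for siWDR77_R1881 sample number 10 and siWDR77_vehicle sample number 23. Whether libraries of the same position share a culture is not stated, and the main fit has no block. 1 marker gene of the cell line is not reported here.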

Additional observations from a re-analysis of the deposited data

Results flagged for a closer look

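For 26 members the R1881 response differed between P3 and EV cells by the edgeR test of the difference itself, given here as P3 minus EV on the log2 scale. Among transporters and hexokinases the differences were -0.31 for SLC2A1, -0.64 for SLC2A12, -0.49 for HK1 and -0.77 for HK2; that of SLC2A3 was fitted at -5.93, a value that depends on the prior count because EV_vehicle has no count. Among later enzymes and regulators they were 0.45 for PFKM, -0.26 for PFKP, 0.24 for GAPDH, -0.42 for PGK1, -0.84 for PFKFB2 and -0.62 for PFKFB4.

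For lactate and pyruvate genes the differences were 0.49 for LDHB, -0.93 for SLC16A3 and -0.29 for PDK1. In the HIF pathway they were -0.54 for HIF1A and 0.81 for EGLN3. Among hypoxia-inducible genes they were -1.15 for VEGFA, -0.56 for BNIP3, -0.37 for BNIP3L, 2.90 for ADM, -1.43 for ANKRD37, -0.76 for KDM7A, -0.48 for P4HA1, -0.78 for P4HA2, -1.02 for BHLHE40 and 0.30 for MXI1. The calls of MXI1, LDHB and PDK1 were lost under 8, 6 and 6 alternatives, that of PFKP under 2 and those of GAPDH and EGLN3 under 1 each. Without TMM scaling those of PDK1 and PFKP were lost.

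P4HA1 moved in opposite directions with R1881 in the 2 control transfections, by 0.62 in EV cells and -0.56 in siCtrl cells, and that difference was not tested.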

How the results depend on the processing

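Counts of called members kept within 1.5 times of the main value in 7 of 10 comparisons under every alternative. Leaving out single libraries gave 15 to 20 for the P3 response, 36 to 38 for EV, 12 to 19 for P3_vehicle against EV_vehicle, 25 to 29 for P3_R1881 against EV_R1881, 24 to 28 for the difference of P3 and EV responses, 30 to 37 for the siWDR77 response and 30 to 34 for siCtrl. For siWDR77_R1881 against siCtrl_R1881 (10 called) the range was 5 to 15. For siWDR77_vehicle against siCtrl_vehicle (1 called) it was 0 to 4, with 2 for unscaled library sizes, 4 without a filter, 4 by DESeq2, 0 with only the 2 groups and 5 with all 24 libraries in 1 fit. Over all genes, unscaled sizes called 142 higher and 131 lower of 17893, and no filter 193 and 229 of 36927. DESeq2 called 244 and 223 of 11333, the 2 groups alone 44 and 83 of 17184, and all 24 libraries 211 and 280 of 18999. For the difference of siWDR77 and siCtrl responses (0 called by edgeR) the range was 0 to 2, with 3 without a filter, 2 by DESeq2 and 2 with all 24 libraries. Over all genes, no filter called 48 higher and 64 lower of 36927, DESeq2 30 and 26 of 13408, and all 24 libraries 29 and 11 of 18999. The cause was not tested.

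With the sample numbers as a replicate block the counts were 21, 38, 22, 28 and 30 in the peptide experiment, in the order above, and 35, 34, 12, 3 and 1 in the knockdown experiment. Over all genes the block also gave more calls in both directions in each comparison. For siWDR77_vehicle against siCtrl_vehicle these were 152 higher and 183 lower with the block, against 122 and 151 in the main fit. The block ended 1 member call, ADM in the siWDR77 response.

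Without TMM scaling 16 log2 fold changes that were called with or without the scaling turned sign, and 33 called in neither did so too. With R1881 in EV cells these were GPI (-0.14), PFKL (-0.15), PGAM1 (-0.018) and DDIT4 (-0.12), and in siCtrl cells GPI (-0.084), PFKL (-0.20), ALDOC (-0.23), PGAM1 (-0.11) and DDIT4 (-0.22). In siWDR77 cells they were GPI (-0.27), PGK1 (-0.18), PGAM1 (-0.15), ENO1 (-0.18) and PDK1 (-0.039), and for P3_R1881 against EV_R1881 LDHA (0.0095) and SLC16A1 (0.15). Depth limits SLC2A10, PDK4, CA9 and ADM, which rest on few counts.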

Other observations

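The 2 control transfections started from different levels without hormone. In CPM of the deposited total, and with no test because the experiments differ in transfection and were scaled separately, 4 of 42 members at 1 CPM or more were at least 2-fold higher in EV_vehicle than in siCtrl_vehicle (9.52%) and 0 were lower, against 1.29% and 1.68% of 14658 genes. LDHA was at 1001 CPM in EV_vehicle against 293 in siCtrl_vehicle, HK2 at 63.1 against 20.5, PDK1 at 74.8 against 28.6 and PFKP at 147 against 69.8. EGLN3 was lower in EV_vehicle in every library, at 21.6 ± 2.65 CPM against 37.3 ± 12.1 in siCtrl_vehicle (SD, n = 3). The highest siCtrl_vehicle value is from the library of high mitochondrial share. The transfection and the experiment cannot be told apart here.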
